A study of Mus musculus with 24 samples.

Results

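Hypothalamic RNA of lower and of higher integrity was compared among control mice of an overfeeding experiment. The comparison set 5 control libraries with an RNA integrity number (RIN) under 9 against 6 control libraries with a RIN of 9 or more. These 11 libraries, of 24 in the series, were all of control mice and were split by their RIN labels. Control d14 replicate 4 was left out although its labels, a control with a RIN of 9.8, would place it in the high RIN set. Its omission thus does not follow from the labels. Its expression values, given at the end, lay far from those of the 11. The study dropped a control mouse of this day because its RNA was of poor quality, and which replicate this was is not given in the sources used here. The question was which differences between hypothalamic libraries go with RNA integrity in mice that were not overfed.

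All mice were adult wild-type C57BL/6J males with free access to chow, single-housed and fitted with a gastric catheter. Control mice were infused with sterile water and killed on day 14 (d14) or 3 days later (d14+3), each library coming from the hypothalamus of a separate mouse. The 12 mice with experimental overfeeding (ExpOF) carried the same catheter, received a liquid diet in energy surplus until d14, and were killed on the same days. They serve here only for comparison. The wild-type strain and the surgery were shared by every group, so no library comes from an unoperated mouse.

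Among the controls of d14 the low RIN libraries had a RIN of 8.6 and 8, and the high RIN libraries had 9.6, 9.8 and 10. Among the controls of d14+3 the low RIN libraries had 7.9, 7.2 and 7.9, and the high RIN libraries had 9.5, 9.3 and 9.9. On d14 both low RIN mice were killed in September and the 3 high RIN mice in July. On d14+3 the 3 low RIN samples were extracted in the second round and the 3 high RIN samples in the first. Within a day, RIN therefore cannot be told apart from cohort (d14) or from extraction round (d14+3).

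RIN is read from an electrophoresis trace of total RNA and rests mainly on the peaks of ribosomal RNA (rRNA), which lose height as RNA breaks. The libraries were made from RNA that was captured by its poly-A tail. Such capture leaves out most rRNA, which has no long tail, and takes from a broken messenger RNA only the piece that carries the tail. How far a gene's count depends on integrity is known to vary with the length and base composition of its transcript and with how fast the transcript decays.

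The low RIN libraries held 20965000 to 29374000 counts and the high RIN libraries 21606000 to 34848000. Mean totals were 23110000 ± 3540000 (SD, n = 5) and 26980000 ± 4410000 (SD, n = 6). This difference did not reach p under 0.05 (two-sided exact permutation test within day, p = 0.15, adjusted over 4 measures 0.38). The other 3 measures did not reach it by this test either. Genes with at least 1 count numbered 27680 ± 349 and 27930 ± 971 (exact p = 0.64, adjusted 0.64). The 10 most abundant genes took 4.842 ± 0.322% and 4.604 ± 0.242% of counts (exact p = 0.19, adjusted 0.38). Genes of the mitochondrial genome took 3.875 ± 0.453% and 3.604 ± 0.341% (exact p = 0.32, adjusted 0.427). The summed level of 23 hypothalamic neuropeptide genes was 2313 to 2709 CPM (counts scaled to the size of the library) in the low RIN libraries. It was 2297 to 3607 CPM in the high RIN libraries. The series holds no other tissue to set beside these levels, so the tissue label was not tested.

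Of 19574 genes tested by edgeR's quasi-likelihood test with day as a covariate, 0 (0%) passed an adjusted p under 0.05, and the smallest adjusted p was 0.54. Without adjustment, 638 genes (3.26% of those tested) were higher and 923 (4.72%) lower in low RIN libraries at p under 0.05, together 1561. DESeq2 on the same counts called 11 genes (0.0562%), of which 10 were lower in low RIN libraries. The 10 were Gm26917, Gm23935, Clec3b, Dbp, Prr7, Oxt, Yjefn3, Zfp771, Scand1 and CT010467.1, and the 1 called higher was Gm28322, with a mean of 6.55 counts. In the text below, higher and lower mean the direction of the edgeR estimate, which missed the threshold for each gene named. All folds are log2 values of low minus high RIN.

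The genes with the smallest p values fell into short, GC-rich genes that were lower and long genes of modest GC content that were higher. The 10 leading lower genes had exonic lengths of 57 to 3329 bases and a GC content of 58.5 to 73.7%. The 10 leading higher genes had lengths of 3740 to 11294 bases and a GC content of 41 to 49.8%. Of the lower genes 0 were longer than 4 kb, and of the higher genes 9 were. In 3 of the lower and 6 of the higher genes the 5 low RIN libraries did not overlap the 6 high RIN libraries. These genes were picked by their p in the same comparison, so little overlap follows from the choice and is no further evidence. Over all genes tested, the low RIN libraries lay wholly below in 36 genes (0.184%) and wholly above in 37 (0.189%).

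The lowest p belonged to Gm26917, a gene on mouse chromosome 17 (chr17:39843013-39846245, build mm10) next to CT010467.1 (chr17:39846353-39848827, minus strand), which is annotated as rRNA. In the low RIN libraries Gm26917 stood at 15.9, 20.9, 16.0, 13.8 and 9.61 CPM. In the high RIN libraries it ran from 21.8 over a median of 27.4 to 40.1 CPM, so that the sets did not overlap. The log2 difference was -0.93 ± 0.18 (SE), and DESeq2 gave an adjusted p of 0.00511. CT010467.1 had 601, 849, 607, 630 and 530 CPM at low RIN and 740 to 1555 CPM at high RIN, a difference of -0.75 ± 0.18 (SE). Only Control d14 replicate 5 among the low RIN libraries reached the range of the high ones for CT010467.1.

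A group of rRNA-related features moved with these genes. The list was drawn up after their values had been seen, so its direction is a description. CT010467.1 and n-R5-8s1 are annotated as rRNA, and the other members were placed there from general knowledge that their sequences resemble rRNA, which no reference used here could check. All 9 members that passed the filter on low counts, of 11, were lower in low RIN libraries at an unadjusted p under 0.05, with a median of -1.10 beside 0.01 over all genes tested. The members AY036118 and Gm42418, which overlap CT010467.1, held 0 counts in every one of the 24 libraries. The summed level of the 9 was 803 to 1211 CPM (median 910) at low RIN and 1085 to 2113 CPM at high RIN. In the 12 ExpOF libraries, whose RIN ran from 8.8 to 10, it was 571.9 to 1593 CPM, with a median of 717.8 CPM. Low levels of these features were thus also seen in libraries of high RIN.

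Several of these features are short, and their letters show why their counts cannot be assigned to one place. The 3 features below are annotated miRNA genes of 57 bases in GENCODE vM21. Capitals mark the position at which they differ, written 5′ to 3′.
Gm23935 (chr16:11144125-11144181, plus strand): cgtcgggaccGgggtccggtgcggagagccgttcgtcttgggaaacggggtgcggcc
Gm24270 (chr9:56223715-56223771, minus strand): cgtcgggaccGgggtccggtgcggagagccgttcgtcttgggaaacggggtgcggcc
Gm24187 (chr13:9834469-9834525, minus strand): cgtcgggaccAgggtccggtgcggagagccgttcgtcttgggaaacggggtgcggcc
Gm23935 and Gm24270 were identical over 57 bases, and Gm24187 differed from them by G11A, counted from the 5′ end. A further copy, Gm24245, holds the same letters as Gm23935 and received 0 to 1 counts per library. Reads from any copy can be given to another, so the values of single copies are uncertain.

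Gm23935 had 8.495, 9.52, 15.3, 12.2 and 9.23 CPM in the low RIN libraries and 13.0 to 46.5 CPM in the high RIN libraries, with a median of 29.8. The sets overlapped only in that Control d14+3 replicate 4 (15.3 CPM) lay above Control d14 replicate 3 (13.0 CPM). Its difference was -1.47 ± 0.30 (SE), that of Gm24270 was -1.10 and that of Gm24187 -0.88. The identical pair thus received different levels, 10.96 against 1.18 CPM in mean at low RIN, and moved in one direction.

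Mir6236 is another annotated miRNA gene that was lower, at 5.89 ± 2.40 CPM (SD, n = 5) against 16.9 ± 9.13 (SD, n = 6) and a difference of -1.58 ± 0.39 (SE). A library of poly-A captured RNA does not count mature miRNAs, so the values of the miRNA features are levels of longer RNA over the feature.

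The remaining rRNA-related members went the same way. The rRNA gene n-R5-8s1 was at 0.357 ± 0.216 against 1.20 ± 0.679 CPM, a difference of -1.78. Gm15564 differed by -1.14. Lars2, the mitochondrial leucyl-tRNA synthetase, differed by -0.51, with 229 to 305 CPM at low and 284 to 477 CPM at high RIN, so that the sets overlapped. A list of 3 small RNAs of RNA polymerase III was also made after the values were seen. Rn7sk (-1.02) and Rny1 (-2.004) were lower at an unadjusted p under 0.05 and Bc1 (-0.49) was lower without reaching it. Rny1 was near the floor, with a mean of 12 counts and 0.172 CPM at low against 0.675 CPM at high RIN. Rn7sk binds the elongation factor P-TEFb, Rny1 is a Y RNA, and Bc1 is a brain RNA that represses translation. None of these RNAs is a typical polyadenylated messenger.

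**Figure D1:**
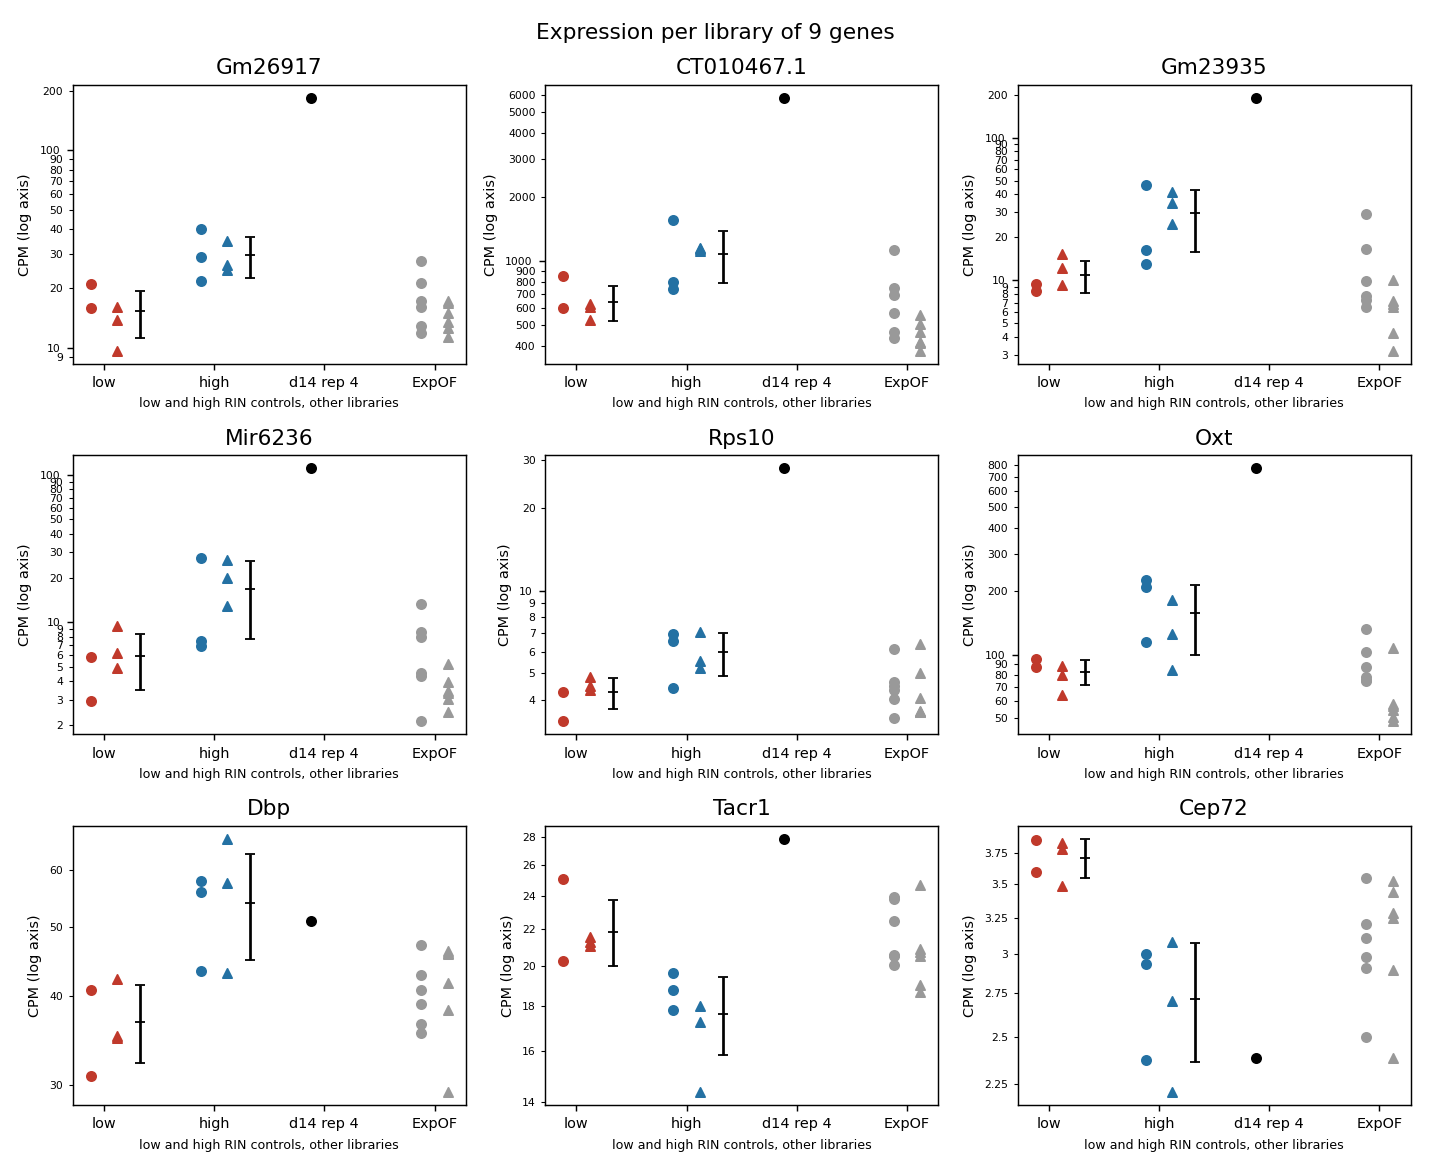
Expression of 9 genes in every library in CPM on a log axis, with low RIN controls in red, high RIN controls in blue, Control d14 replicate 4 in black and ExpOF mice in grey, circles for d14, triangles for d14+3, and bars for mean ± SD of the low (n = 5) and high (n = 6) RIN controls. Gm26917 and Dbp do not overlap downwards and Tacr1 and Cep72 do not overlap upwards between low and high RIN, while Control d14 replicate 4 is far above all other libraries for Gm26917 (185 CPM).

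Protein-coding genes among the leading lower ones were short and GC-rich. Dbp encodes a transcription factor driven by the circadian clock. Its levels were 30.9, 40.7, 42.2, 35.2 and 35.0 CPM at low RIN and 43.1 to 66.4 CPM at high RIN, a difference of -0.56 ± 0.12 (SE) without overlap. Prr7 (-1.04), Yjefn3 (-0.96), Zfp771 (-0.94), Scand1 (-1.33) and Clec3b (-0.90) differed more but overlapped, since Control d14 replicate 3, a high RIN library, lay within the low RIN range for each of them. For Scand1, a gene of 803 bases with 68.4% GC, that library had 1.27 CPM beside 0.882 to 1.54 CPM in the low RIN libraries.

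Among the leading higher genes, Tacr1, the receptor of substance P, had 25.1, 20.3, 21.3, 21.1 and 21.5 CPM at low RIN. It had 14.4 to 19.6 CPM at high RIN, a difference of 0.32 ± 0.08 (SE) with no overlap. Cep72, a centrosome protein, stood at 3.71 ± 0.160 (SD, n = 5) against 2.72 ± 0.355 CPM (SD, n = 6), a difference of 0.45 with no overlap. Aph1c, a subunit of gamma-secretase, was at 10.5 to 12.1 CPM against 7.81 to 9.71 CPM. Ceacam1 (0.58), Gbp5 (0.44), an interferon-induced GTPase, and Trim12c (0.40) did not overlap either. Tlr7 (0.58), a receptor of single-stranded RNA, Sulf1 (0.35), a heparan sulfate sulfatase, Klhl1 (0.32) and Slc18a2 (0.34), the vesicular monoamine transporter, overlapped by 1 or more libraries. The adjusted p was 0.54 for each of these 10 genes (edgeR).

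Genes of the translation machinery were lower at low RIN nearly throughout. Ribosomal proteins build the ribosome with rRNA, and their messengers are short, abundant and stable. Over all 19574 genes tested, 9481 were lower and 10093 higher, with 4.72% lower and 3.26% higher at an unadjusted p under 0.05. Of 82 cytosolic ribosomal protein genes tested, 80 were lower in low RIN libraries. At that level 31 of them were lower and 0 higher, and the median was -0.28. The median was alike on both days, -0.27 on d14 and -0.29 on d14+3. Rps10 illustrates the size, with 3.34, 4.28, 4.51, 4.85 and 4.34 CPM at low RIN and 4.42 to 7.07 CPM at high RIN, a difference of -0.50 ± 0.15 (SE). Control d14 replicate 3 (4.42 CPM) was the only high RIN library within the low RIN range. Rplp2 (-0.53) and Rpl37a (-0.45) were lower by similar amounts.

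Genes of the respiratory chain, the mitochondrial ribosome and the proteasome were shifted in the same direction by less. Of 77 genes in the nucleus that encode subunits of respiratory complexes or of ATP synthase, 75 were lower, 12 at an unadjusted p under 0.05, with a median of -0.23. Cox8a (-0.51) and Uqcrq (-0.45), subunits of complexes IV and III, had the smallest p values. Of 77 mitochondrial ribosome genes 73 were lower, 16 at that level, with a median of -0.16, led by Mrps34 (-0.74) and Mrpl52 (-0.52). Of 46 proteasome genes 39 were lower, 3 at that level, among them Psmb6 (-0.29) and Psmd9 (-0.19), and the median was -0.17. In these lists 0 genes were higher at that level. Over all genes tested 4.72% were lower and 3.26% higher, and the count for the proteasome was near that share. Without Control d14 replicate 1 the medians of the respiratory chain, the mitochondrial ribosome and the proteasome were -0.14, -0.10 and -0.09, and without Control d14 replicate 5 they were -0.35, -0.24 and -0.24.

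Genes that host small nucleolar RNAs (snoRNAs) in their introns behaved like the ribosomal protein genes, with 14 of 16 lower and a median of -0.27. At an unadjusted p under 0.05, 7 were lower, beside 4.72% of all genes tested. 2410006H16Rik had 15.7, 22.4, 17.3, 17.1 and 18.0 CPM at low RIN and 18.8 to 26.7 CPM at high RIN, a difference of -0.38. Snhg20 differed by -0.40 and Zfas1, another host, by -0.29 (unadjusted p = 0.0584, edgeR). Many hosts and ribosomal protein genes are known to share a terminal oligopyrimidine (TOP) start, a C followed by a run of pyrimidines at the first base of the transcript.

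The RefSeq start windows (GRCm38.p6) were searched on the gene's own strand for a C followed by at least 4 bases that are each C or T, beginning within 5 bases of the annotated start. Such a start was found in 29 of 61 ribosomal protein genes with a window (47.5%) and in 6 of 14 snoRNA hosts (42.9%). The share was 18.5% of all 27025 windows and 20.1% of the genes tested. It was 27.0% in the respiratory chain list, 23.7% in the proteasome, 12.8% among genes of synaptic adhesion and 9.09% among cytoskeletal giants. A match is a description of the letters and no proof of use. The 30 bases below run from 10 before the annotated start to 20 into the gene for the members with the smallest p among those with a window, with the run in capitals where one was found.
Rps10 (chr17:27635225-27635254, minus strand): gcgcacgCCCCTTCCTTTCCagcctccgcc
Rplp2 (chr7:141447641-141447670, plus strand): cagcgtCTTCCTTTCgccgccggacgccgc
Rpl37a (chr1:72711250-72711279, plus strand): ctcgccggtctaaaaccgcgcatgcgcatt
2410006H16Rik (chr11:62602867-62602896, plus strand): cgccgtCTTTCTCTgcggccatcatgggat
Snhg20 (chr11:117076773-117076802, plus strand): gttccggccggaagtgcatttgcagagctg
Lower levels at low RIN were seen with such a start (Rps10, Rplp2, 2410006H16Rik) and without one in this window (Rpl37a, Snhg20).

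Long genes leaned the other way. A list of 29 genes for giant proteins is called cytoskeletal giants here, although not all its members are cytoskeletal. Of the 29, 28 were higher in low RIN libraries, with a median of 0.24, beside 10093 of all 19574 genes tested. At an unadjusted p under 0.05, 2 of the 29 were higher, beside 3.26% of all genes tested. Csmd3, a gene of 16882 exonic bases, had 64.3, 33.8, 52.8, 49.3 and 60.7 CPM at low RIN and 27.3 to 51.4 CPM at high RIN, a difference of 0.44 ± 0.19 (SE). Birc6, which encodes a giant ubiquitin ligase, differed by 0.33. In both genes Control d14 replicate 5 lay among the high RIN libraries, while Control d14+3 replicate 2 and Control d14 replicate 3 were the highest of the high RIN libraries and lay above it.

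Among 52 genes of synaptic adhesion and scaffolds 40 were higher, with a median of 0.15. At an unadjusted p under 0.05, 4 were higher, beside 3.26% of all genes tested. The latrophilin Adgrl3 (0.30) and the cell adhesion molecule Cadm2 (0.33) led the list. Among 56 clustered protocadherins, cell surface proteins that give neurons an identity, 51 were higher, 4 at that level, with a median of 0.18, led by Pcdha3 (0.36) and Pcdhb2 (0.49). Protocadherin genes of a cluster share parts of their sequence, so their single values are uncertain. Voltage-gated channels had a median of 0.11 with 30 of 38 higher, including Kcnh1 (0.35). Their median was 0.19 on d14, where 1 of 38 was lower, and 0.06 on d14+3, where 14 were. Glutamate and GABA receptors had a median of 0.14 with 27 of 35 higher. Without Control d14 replicate 1 the medians were 0.07 for synaptic adhesion, 0.08 for protocadherins, 0.04 for channels, 0.07 for receptors and 0.11 for the cytoskeletal giants. Without Control d14 replicate 2 that of the channels was 0.06, and without Control d14+3 replicate 1 that of the receptors was 0.09.

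The genes of these lists that were lower at an unadjusted p under 0.05 had a high GC content. In the receptor list Grik3 (54.2% GC) was higher by 0.24 and Grik5 (61.7% GC) lower by a difference of -0.17, both at an unadjusted p under 0.05. In the list of 49 genes of chromatin and histone methylation, with 41 higher and a median of 0.10, Tet1 (43.7% GC, 0.39) and Kdm5a (43.3% GC, 0.29) were higher and Ehmt2 (60.8% GC, -0.20) was lower at that level. The chromatin median was 0.04 without Control d14 replicate 1. Both Grik5 and Ehmt2 exceed 5 kb of exonic length, at 5168 and 5489 bases.

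**Figure D2:**
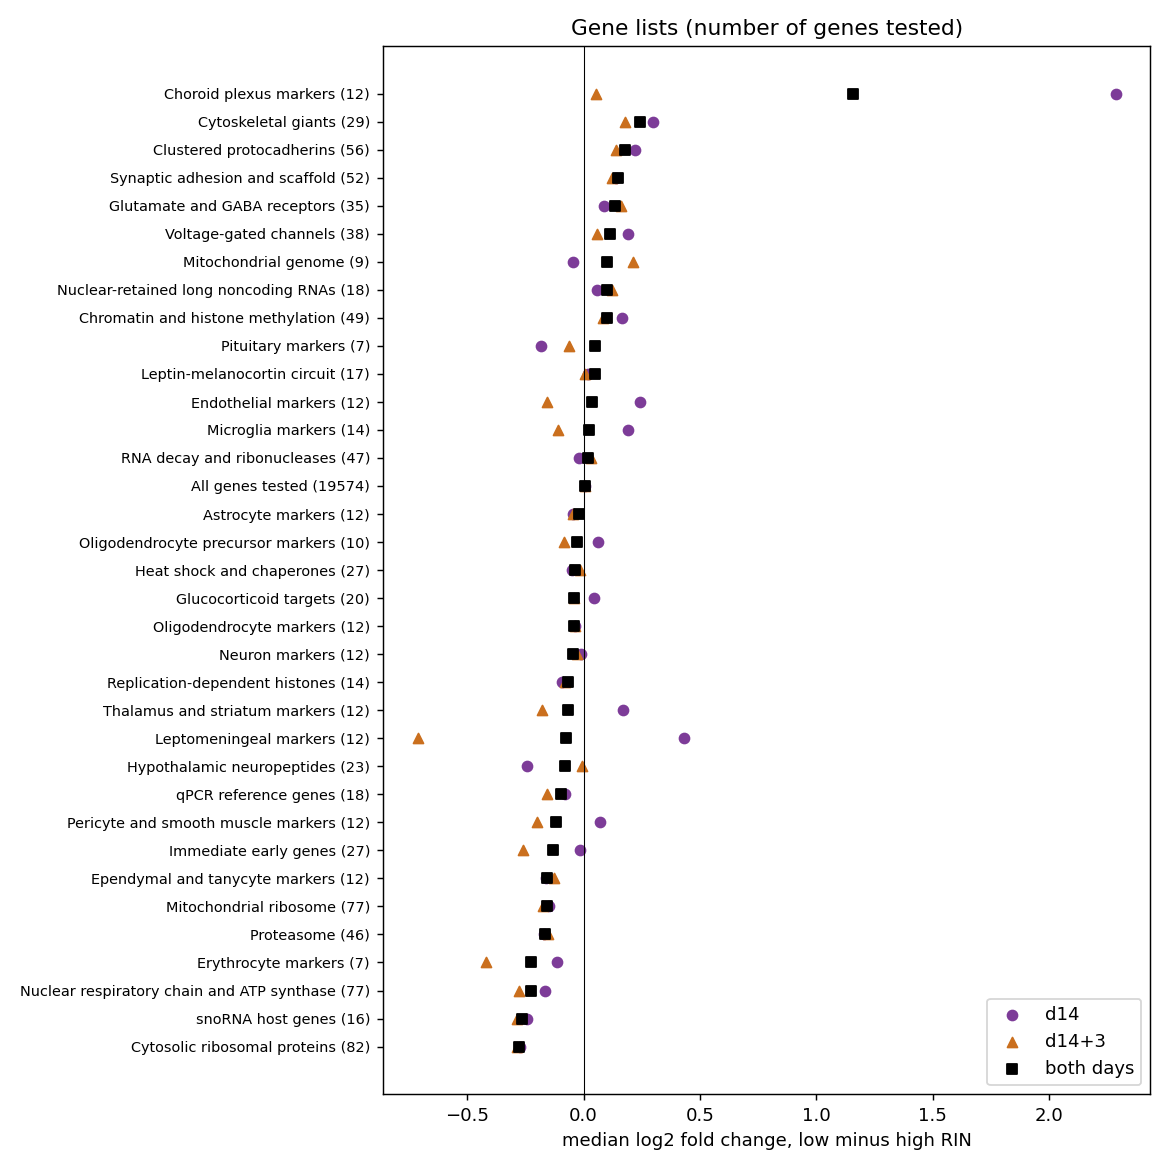
Median log2 fold change of low minus high RIN for 34 gene lists and all genes tested, on d14 (circles), on d14+3 (triangles) and over both days (squares), with the number of genes tested in brackets. Cytosolic ribosomal proteins, snoRNA hosts and the respiratory chain have the lowest medians over both days (-0.28, -0.27 and -0.23), the leptomeningeal markers lie lowest on d14+3 (-0.71), the cytoskeletal giants lie at 0.24, and the choroid plexus markers are high on d14 only (2.29 against 0.06 on d14+3).

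Length and GC content were then read over all genes. By exonic length, the median log2 difference was 0.01 for genes under 1 kb, -0.09 for 1 to 2 kb, -0.05 for 2 to 4 kb, 0.02 for 4 to 8 kb and 0.12 above 8 kb. Above 8 kb, 2271 of 2764 genes were higher, 195 of them at an unadjusted p under 0.05 against 26 lower. In the class of 1 to 2 kb, 1787 of 2800 genes were lower, 247 at that level against 56 higher. The shares over all genes tested were 4.72% lower and 3.26% higher. The medians of the length classes were nearly the same on d14 and d14+3, at 0.12 on each day above 8 kb and at -0.10 on each day for 1 to 2 kb.

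By GC content of the transcript, the median ran from 0.16 under 40% to -0.12 at 55% or more. Of 4189 genes with 55% GC or more, 605 were lower at an unadjusted p under 0.05 and 33 higher. Here the days were unlike. On d14+3 the medians were 0.27 under 40% and -0.19 at 55% or more, and on d14 they were 0.02 and -0.04. The difference between the days was tested per gene and not for these classes.

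With GC content held within a class length showed on both days, and with length held within a class GC content showed on d14+3 only. Among protein-coding genes with 45 to 50% GC the median ran from -0.14 under 1 kb through -0.09 (1 to 2 kb), -0.03 (2 to 4 kb) and 0.04 (4 to 8 kb) to 0.13 above 8 kb. From the shortest to the longest of these classes it ran from -0.19 to 0.15 on d14 and from -0.10 to 0.11 on d14+3. Among protein-coding genes of 2 to 4 kb it ran from 0.10 under 40% GC to -0.14 at 55% or more. On d14+3 these values were 0.23 and -0.21, and on d14 they were -0.07 and -0.07. Processed pseudogenes, which are copies of messengers without introns and can share reads with their parent genes, had a median of 0.13 over 892 tested.

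**Figure D3:**
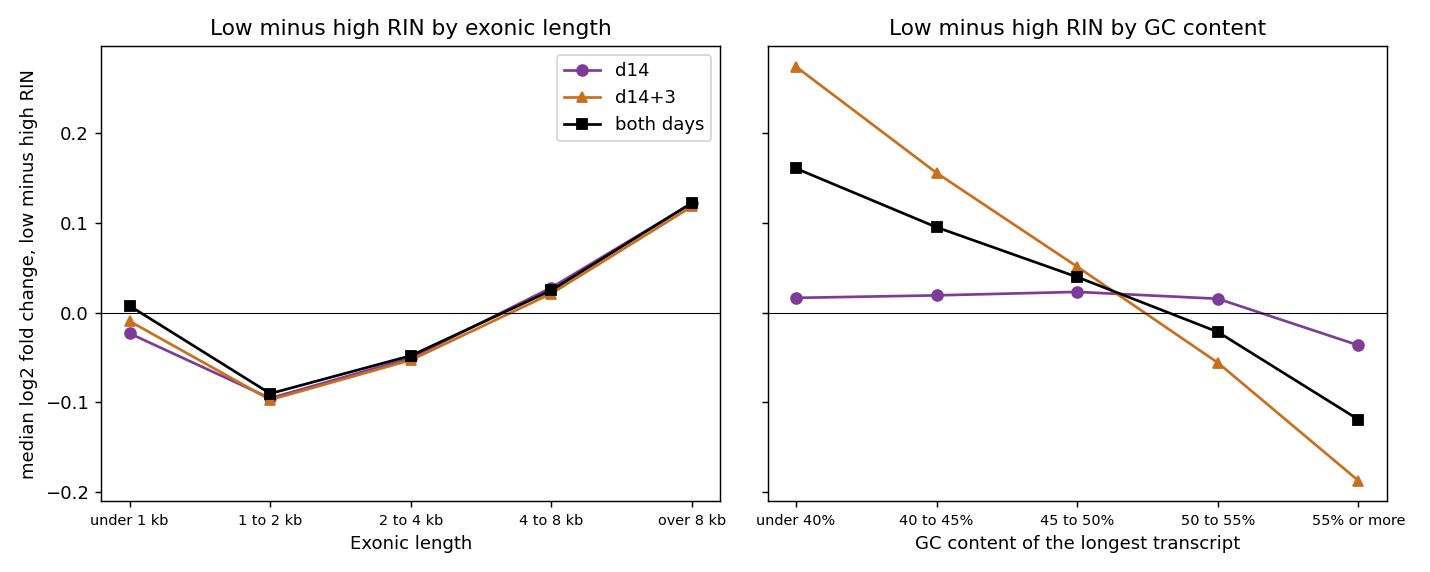
Median log2 fold change of low minus high RIN for classes of exonic length (left) and of GC content (right), on d14, on d14+3 and over both days. The 3 lines lie on each other for length, from -0.09 at 1 to 2 kb to 0.12 above 8 kb, and separate for GC content, where the d14+3 line runs from 0.27 to -0.19.

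When each library's trend with exonic length was removed before the test, the median of the cytoskeletal giants went from 0.24 to 0.03, that of synaptic adhesion from 0.15 to 0.03 and that of chromatin from 0.10 to -0.03. The median of the ribosomal proteins went only from -0.28 to -0.26, that of the respiratory chain from -0.23 to -0.20 and that of the snoRNA hosts from -0.27 to -0.23. With trends in both length and GC content removed (an alternative added after seeing the data), the ribosomal proteins stood at -0.25, the rRNA-related features at -0.66 and the protocadherins at 0.15. Counts of genes called stayed at 0 in each of these edgeR fits.

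Low and high RIN were also compared within each day, in 1 fit over the 11 libraries whose 4 sets of RIN class and day shared an estimate of the spread. On d14 (2 low against 3 high RIN) 461 genes (2.36%) were higher and 276 (1.41%) lower at an unadjusted p under 0.05. On d14+3 (3 against 3) 698 (3.57%) were higher and 1048 (5.35%) lower. Both had 0 calls by edgeR after adjustment, and DESeq2 called 7 on d14 and 0 on d14+3. The difference between the days was tested itself, with 0 calls by edgeR, 1 by DESeq2 and 955 genes (4.88%) at an unadjusted p under 0.05. Of the 34 lists, 16 had a median below 0 and 9 a median above 0 on both days.

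Hypothalamic peptide genes are short, and some were lower at low RIN. Oxt, the gene of oxytocin, had 87.7, 94.8, 79.9, 64.6 and 88.1 CPM at low RIN and ran from 84.0 over a median of 153 to 227 CPM at high RIN. The difference was -0.86 ± 0.20 (SE), and DESeq2 gave an adjusted p of 0.0429. Only Control d14+3 replicate 2 among the high RIN libraries lay within the low RIN range for Oxt. Gal, the gene of galanin, differed by -0.32 ± 0.09 (SE), at 31.9 ± 3.37 against 40.6 ± 6.71 CPM. In bulk tissue, fewer cells of a type and less RNA per cell cannot be told apart.

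Over the list of 23 neuropeptide genes, 6 were lower and 1 higher at an unadjusted p under 0.05, beside 4.72% and 3.26% of all genes tested. The median of the list was -0.08, at -0.24 on d14 and -0.01 on d14+3. In the leptin-melanocortin circuit, which senses leptin and sets food intake, the short genes Pomc (-0.36) and Cartpt (-0.34) were lower at that level. The longer genes Lepr (0.49), the leptin receptor, and Pcsk1 (0.32), a prohormone convertase, were higher at that level. The days were unlike for most of them. Lepr differed by 0.89 on d14 and 0.13 on d14+3, and Pcsk1 by 0.06 and 0.53. Pomc differed by -0.09 and -0.60 on these days, and Cartpt by -0.31 and -0.36. Pomc had 42.7 and 30.2 CPM on d14 and 15.1, 21.5 and 19.9 CPM on d14+3 at low RIN, and 22.3 to 44.6 CPM at high RIN, so the sets overlapped widely. Npy and Agrp, the appetite-raising peptides of the arcuate nucleus, differed by -0.0047 and 0.0472 with SEs of 0.13 and 0.20. Their estimates changed sign under 11 and 9 of 27 other settings.

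Genes used as qPCR references were shifted unequally. Of 18 tested, 14 were lower and 4 higher, with a median of -0.10. At an unadjusted p under 0.05, 2 were lower and 0 higher, beside 4.72% and 3.26% of all genes tested. Gapdh differed by -0.18 and Actb by -0.11, Tbp by 0.14 and Polr2a by 0.15, and Sdha by -0.02. Gapdh had 972 ± 127 CPM (SD, n = 5) against 1095 ± 133 (SD, n = 6), a difference within the spread. The nuclear RNA Malat1 differed by -0.01 ± 0.15 (SE) and Stat3, a transcription factor downstream of the leptin receptor, by 0.07 ± 0.06 (SE).

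Immediate early genes, which respond to cell activity within minutes, had a median of -0.13 (-0.02 on d14 and -0.26 on d14+3), and 2 of 27, Junb (-0.54) and Jund (-0.56), were lower at an unadjusted p under 0.05. Both are GC-rich, with 62.6 and 67.1%. Over all genes tested, 4.72% were lower at an unadjusted p under 0.05. Heat shock and chaperone genes had a median of -0.04 with 0 of 27 at that level, and genes of RNA decay had a median of 0.02. Genes of the mitochondrial genome had a median of 0.10 with 0 of 9 at that level, -0.04 on d14 and 0.21 on d14+3, with mt-Nd5 (0.28) having the smallest p.

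Markers of neurons, astrocytes, oligodendrocytes and their precursors had medians of -0.04, -0.02, -0.04 and -0.03. Microglia markers stood at 0.19 on d14 and -0.11 on d14+3 (0.02 over both days) and endothelial markers at 0.24 and -0.16 (0.04 over both days). All 12 choroid plexus markers were higher at low RIN, with a median of 1.16. At an unadjusted p under 0.05, 5 were higher, beside 3.26% of all genes tested. Their summed level was 327.5 to 4388 CPM at low and 284.6 to 365.5 CPM at high RIN. The top of that range was Control d14 replicate 5, in which Ttr, the transthyretin gene that marks choroid plexus epithelium, had 2922 CPM beside 1.07 to 10.5 CPM in the other 4 low RIN libraries. Kcnj13 (7.77 CPM) and Clic6 (52.6 CPM) were also higher there than in the other 10 controls. Without that library the median of the list was 0.01.

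Leptomeningeal markers, of the membranes around the brain, had a median of 0.43 on d14, where 0 of 12 were lower, and -0.71 on d14+3, where 12 of 12 were lower, with Igf2 higher (0.63) and Col3a1 lower (-1.48) over both days. Col3a1 ranged from 3.84 to 135 CPM at high RIN. Erythrocyte markers had a median of -0.22 (-0.12 on d14 and -0.42 on d14+3), ependymal markers of -0.16, and markers of pericytes and smooth muscle of -0.12. The pituitary list had a median of 0.05 and the list of thalamus and striatum one of -0.07. Their part in the differences between genes of other lists was not tested.

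The shifts were read library by library as the median deviation of a gene class from the mean of the 11 controls, on a log2 scale. The difference between genes over 8 kb and genes of 1 to 2 kb was 0.31, -0.24, 0.17, 0.10 and 0.24 in the low RIN libraries (Control d14 replicates 1 and 5, Control d14+3 replicates 4, 5 and 6). In the high RIN libraries it was -0.37, 0.10 and -0.22 on d14 and -0.12, 0.25 and -0.29 on d14+3. It was above 0 in 4 of 5 low and 2 of 6 high RIN libraries. The library of lowest RIN (7.2) had only 0.10, so the values were not in the order of RIN.

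The ribosomal protein genes mirrored this, with -0.48, 0.14, -0.10, -0.15 and -0.20 in the low RIN libraries. In the high RIN libraries they stood at 0.35, -0.26 and 0.32 on d14 and 0.17, -0.10 and 0.30 on d14+3. Control d14 replicate 5 again sat with the high RIN libraries, and Control d14 replicate 3 and Control d14+3 replicate 2 with the low ones. Without Control d14 replicate 5, 5307 genes had an unadjusted p under 0.05 in place of 1561, with 0 called by edgeR, and the ribosomal protein median was -0.40. Without Control d14+3 replicate 2 the count was 3396 and without Control d14 replicate 3 it was 3048. Without Control d14 replicate 1, the low RIN library with the highest difference of long against short genes, the count was 798 and the ribosomal protein median was -0.18.

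**Figure D4:**
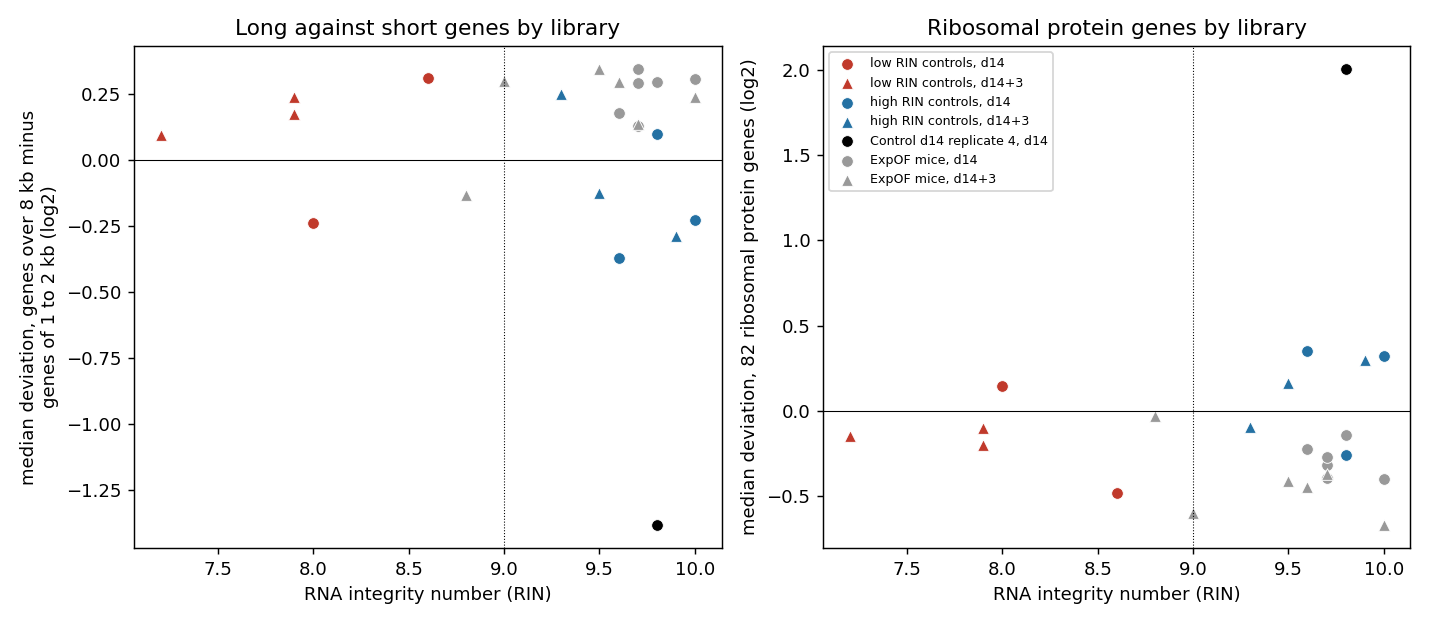
Each library's RIN against the median deviation of genes over 8 kb minus genes of 1 to 2 kb (left, log2) and of the 82 ribosomal protein genes (right, log2), with low RIN controls in red, high RIN controls in blue, Control d14 replicate 4 in black and ExpOF mice in grey, circles for d14 and triangles for d14+3. The low RIN control at RIN 8 lies with the high RIN controls in both panels, ExpOF mice lie above 0 on the left in 11 of 12 libraries at RIN 8.8 to 10, and Control d14 replicate 4 lies apart at -1.38 and 2.01.

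ExpOF mice, whose RIN ran only from 8.8 to 10, had a positive difference of long against short genes in 11 of 12 libraries and ribosomal protein genes below the control mean in 12 of 12. A slope on RIN within the 12 ExpOF libraries, with day as a covariate, gave 0 calls by edgeR among 17894 genes and 1731 (9.67%) at an unadjusted p under 0.05, while DESeq2 called 22. Of 569 genes that were higher in low RIN controls at that level, 394 (69.2%) were lower per unit of RIN lost in ExpOF mice, and of 874 that were lower, 240 (27.5%) were, beside 47.2% of all genes tested in both. This direction rested on ExpOF d14+3 replicate 5, the library of lowest RIN in that group. Without it the shares were 36.1% and 78.5%, beside 50.6% of all genes.

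The median change per unit of RIN lost in the ribosomal protein list was -0.13 in controls. It was 0.31 in ExpOF mice and 0.04 without ExpOF d14+3 replicate 5. The respiratory chain list stood at -0.11 in controls and at 0.23 and -0.07 in ExpOF mice. The cytoskeletal giants stood at 0.12 in controls and at -0.28 and -0.13 in ExpOF mice. The difference of the slopes between controls and ExpOF mice, tested per gene over 23 libraries, gave 0 calls by edgeR and 0 by DESeq2, with 1927 of 20102 genes at an unadjusted p under 0.05.

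**Figure D5:**
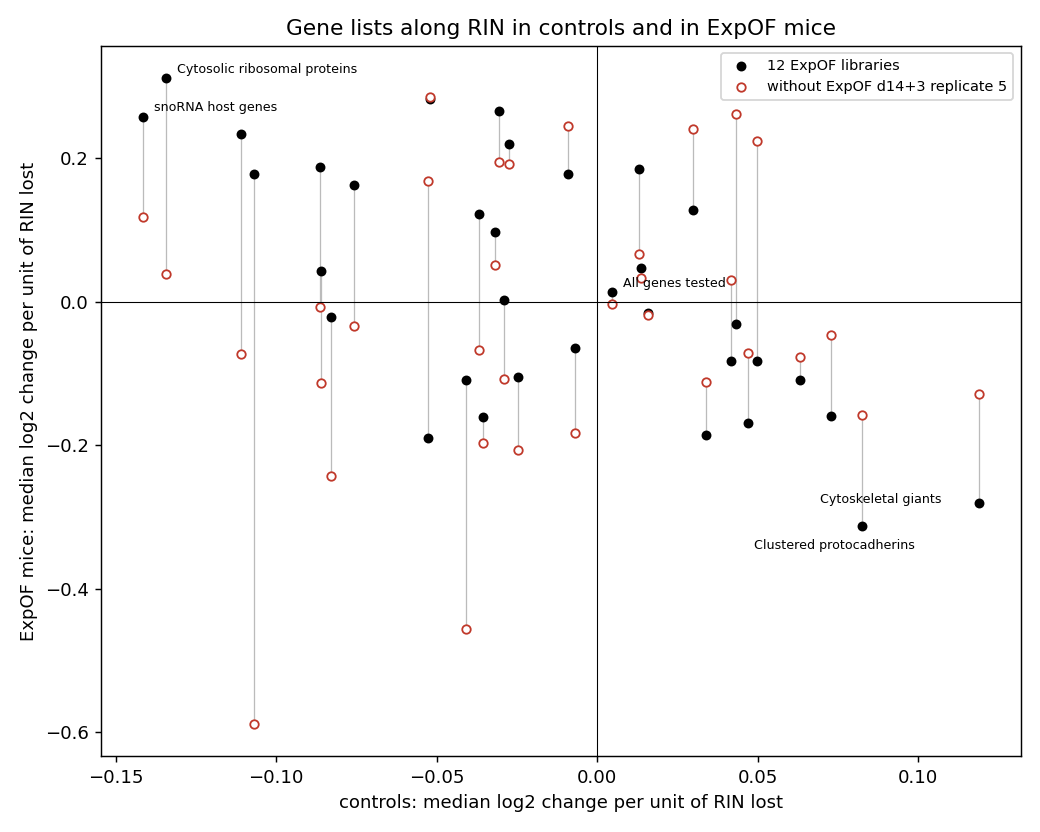
Median log2 change per unit of RIN lost for each gene list in the 11 controls (horizontal) and in the ExpOF mice (vertical), with all 12 ExpOF libraries (filled) and without ExpOF d14+3 replicate 5 (open), the choroid plexus list being left out because its values exceed the axes. The ribosomal protein list moves from 0.31 to 0.04 on the vertical axis when that library is left out.

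Control d14 replicate 4 stood apart from all other libraries, although its label gives a RIN of 9.8. It held 10922000 counts over 21736 genes, beside 26520 to 29151 genes in the 11 controls. Its difference of long against short genes was -1.38 and its ribosomal protein genes stood at 2.01. The rRNA-related features summed to 7993 CPM beside 803 to 2113 CPM in the 11 controls, and Ttr stood at 4481 CPM. Zfas1 had 204 CPM there beside 33.6 to 68.0 CPM in the 11 controls, and Csmd3 9.44 CPM beside 27.3 to 64.3 CPM. With this library counted as a high RIN control, the ribosomal protein median was -0.62 in place of -0.28, and the count of genes at an unadjusted p under 0.05 was 766.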

How the data were processed

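Poly-A selected, stranded paired-end libraries from 24 mouse hypothalami were deposited by the authors as counts per gene, without normalization. Per the labels and the submitters' processing notes, reads were aligned with STAR and counted with featureCounts 1.6.4 on mm10, with gene models of a later GENCODE release than the one used here for names. How the counting treated strand and reads with several matches is not given in the sources used here. Of 55471 genes, 55230 received a symbol from GENCODE vM21, which also gave the gene type and GC content. Exonic lengths were those deposited with the counts.

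The deposited counts were tested in edgeR 4.0.16 (R 4.3.3) with TMM scaling, filterByExpr (minimum count 10, minimum total 15) and the robust quasi-likelihood F-test, with day as a covariate and Benjamini-Hochberg adjustment at 0.05. Fold changes are those of the edgeR fit. A prior count of 2 was used only for log2 levels, from which library deviations and trends were taken. Levels are CPM, also taken from the deposited counts. DESeq2 1.42.0, other filters, other scaling, other covariates, RIN as a number, removal of trends with length or GC content and leaving out each library were alternatives. Genes named are the 10 in each direction with the smallest unadjusted p among genes with a mean of at least 50 counts, since 0 passed adjustment. Up to 2 higher and 2 lower genes per list, reference genes and a few genes of the circuit were added, and some further genes, such as the members of the added lists, were picked with their values in view. The members and lists were chosen with earlier results of these data known, and the lists of rRNA-related features, RNA polymerase III RNAs and pseudogenes were added after values were seen. A few genes and sequences that the rule would name are not reported here. The code was tested on simulated data. No libraries agreed within sampling noise (smallest chi-square per degree of freedom 5.373 over 25 pairs of replicates). Counting intervals would cover counting error only, and the totals per library limit the precision of low genes.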

Additional observations from a re-analysis of the deposited data

Results flagged for a closer look

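Of 166 groups of 5 or 6 libraries examined, 18 held a library far from the others, where chance flags about 1 in 20 groups, here 8.3. Control d14 replicate 5 accounted for 13 of the 18. Among the low RIN controls it had the highest total (29374227 counts), the lowest share of the 10 most abundant genes (4.271%), the lowest mitochondrial share (3.085%) and the highest sum of rRNA-related features (1211 CPM). In the same library Lars2 (305 CPM), Uqcrq (81.4 CPM), Snhg20 (21.4 CPM), Grik5 (158 CPM), Ehmt2 (230 CPM) and Gal (37.8 CPM) stood above the other low RIN controls. The choroid plexus markers Ttr (2920 CPM), Kcnj13 (7.77 CPM) and Clic6 (52.6 CPM) did so too.

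Among the other libraries, Tlr7 (2.18 CPM) and Malat1 (476 CPM) stood high in Control d14+3 replicate 2, Tacr1 (25.1 CPM) in Control d14 replicate 1 and Col3a1 (135 CPM) in Control d14+3 replicate 1. Aph1c (7.81 CPM) stood low in Control d14 replicate 2.

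Control d14 replicate 4 was left out of the main comparison and entered only an alternative fit. It held 7993 CPM of rRNA-related features. Its difference of long against short genes was -1.3843 and its ribosomal protein genes stood at 2.0071 (log2 deviation from the mean of the 11 controls).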

How the results depend on the processing

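The count of genes called between low and high RIN was 0 under every alternative fitted in edgeR but 1, and without adjustment it ran from 753 (without Control d14+3 replicate 3) to 5307 (without Control d14 replicate 5) when a library was left out and from 606 to 2660 under the other settings, beside 1561. DESeq2 called 11, with 7 on d14, 1 for the difference between days and 22 for the slope in ExpOF mice, where edgeR called 0. With a filter of at least 1 count, edgeR called 3 over both days, 5 on d14 and 4 on d14+3. Leaving out a library gave 0 to 48 calls on d14 (48 without Control d14 replicate 1) and 0 to 21 for the difference between days (21 without Control d14 replicate 1). Without that library Control d14 replicate 5 is the only low RIN library of d14, and its spread is assumed to be that of the other sets, so the 48 and 21 rest on 1 sample. Leaving out a library gave 0 to 115 calls for the slope in ExpOF mice (115 without ExpOF d14+3 replicate 5, 13 without ExpOF d14+3 replicate 3). The numbers of the replicates did not pair the mice, the correlations of deviations being -0.206 to -0.064, and with the replicate block 0 genes were called, 1457 without adjustment, and the ribosomal protein median was -0.59. With RIN under 8.5 as low, the medians of ribosomal proteins, cytoskeletal giants and protocadherins were -0.14, 0.04 and 0.03. With extraction round as a covariate the first 2 were -0.49 and 0.41. Leaving out a library moved the difference in total counts between -5430000 and -2290000, in the share of the top 10 genes between 0.147 and 0.38 points, in the mitochondrial share between 0.142 and 0.469 points and in genes detected between -542 and -15.4. Without Control d14 replicate 5, chosen after seeing the data, the differences in the total (-5430000) and in both shares (0.38 and 0.469) passed the exact permutation test before adjustment. With Control d14 replicate 4 included the difference in genes detected was 627. Of 76 genes followed, 67 kept their sign under all alternatives. Grik5 was at 0.03 with the GC trend removed and 0.00 with both trends removed. Npy was at 0.00 with RIN as a number, 0.04 with RIN under 8.5 as low, 0.03 with cohort, 0.03 with the GC trend removed, 0.02 with both trends removed, and between -0.09 and 0.05 without single libraries, 6 of which changed its sign. Agrp was at -0.08 with Control d14 replicate 4, -0.07 without day, -0.05 with cohort and round, -0.22 with round, -0.23 with the replicate block, and between -0.07 and 0.18 without single libraries, 4 of which changed its sign. Malat1 was at 0.01 with RIN as a number and without day, 0.07 with round, 0.08 with the replicate block, and between -0.12 and 0.15 without single libraries, 5 of which changed its sign. Stat3 (-0.03) and Tbp (0.00) changed sign with the length trend removed, Tbp (-0.04) also with both trends removed, and Sdha was at 0.01 with RIN under 8.5 as low and 0.02 without Control d14 replicate 1. Ttr was at -0.71 with Control d14 replicate 4, -1.43 with cohort and round, -2.59 with the replicate block and -1.42 without Control d14 replicate 5 (up to 5.52 without Control d14+3 replicate 5), and Kcnj13 at -0.19 and -1.66 with cohort and round and with the replicate block. The causes were not tested.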
